A study of Saccharomyces cerevisiae with 10 samples.

Results

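AGG-OE is a Saccharomyces cerevisiae strain that carries extra copies of an arginine tRNA gene, tR(CCU)J, whose product decodes the AGG codon. The gene was placed on pRS426, a 2micron plasmid kept at many copies per cell and selected by its URA3 marker, in an otherwise wild-type S288C background. Its control, WT-URA, is wild type with a URA plasmid, so the marker is carried by both strains and the cloned tRNA gene by AGG-OE. The genes described here are the 4343 that reached a set minimum of ribosome footprints in both AGG-OE and WT-URA, of 5021 genes listed in both strains once the plasmid marker URA3 was set aside and of 5373 listed in at least 1 of the 5 strains of the series. For each of them there is an mRNA signal from oligo-dT-selected RNA and a count of ribosome-protected fragments, each from 1 library per strain. The other strains were AGG-QC, which carries on the same plasmid a tRNA from tR(UCU)B whose anticodon had been changed to CCU, ACA-K, in which 3 genes of the threonine tRNA that reads ACA were deleted, and the plasmid-free wild type WT. Cultures of all strains were grown to the same optical density, filtered and frozen at once. How many transformants stand behind each plasmid strain is not given in the sources used here. Nor is the medium in which WT-URA, AGG-OE and AGG-QC were grown, beyond URA selection. The paper states rich medium for its wild-type data set.

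Ribosome profiling counts the short pieces of mRNA that lie inside translating ribosomes, so a gene's footprint level follows both how much of its mRNA there is and how many ribosomes each copy holds. Footprints per mRNA, the ratio of the footprint level to the mRNA level, is the usual reading of the second of these, the translation efficiency. Arginine is encoded by a family of synonymous codons, of which AGG is read in yeast by the tRNA with the CCU anticodon. A tRNA acts inside the ribosome, where its anticodon meets the codon. Yeast gene expression also follows the growth state of the culture closely: genes for ribosome production are high in fast growth, while genes for stress protection, storage carbohydrate and the use of poor nitrogen sources are high when growth slows or preferred nutrients run short.

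Footprint totals were 9127829 in AGG-OE and 8552107 in WT-URA. All levels are given as ppm, the share of the library's total over the 5021 shared genes scaled to 1000000, and a difference is the log2 of the level in AGG-OE over that in WT-URA. With 1 library per strain and assay there is no replicate error and no p-value can be had, so a gene is said to have risen or fallen where its level differed by 1.5-fold or more. For footprints, which are counts, the 95% exact (Clopper-Pearson) interval of a ratio is given for named genes, and it covers counting error only: for a gene at the minimum count in both of 2 equal libraries it reaches from 0.777-fold to 1.29-fold. No interval is given for mRNA, whose unit the tables do not name. Transcripts of the tRNA itself are not among the genes listed, so its overexpression was not measured here. The plasmid marker URA3 had 60442 footprints and an mRNA signal of 1093913 in AGG-OE, against 137431 footprints and 2198521 in WT-URA, which is 0.408-fold in footprints and 0.443-fold in mRNA, and it was not listed in ACA-K or WT. Whether plasmid copy number differed between the strains was not tested.

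Most genes had similar levels in both strains: 78.5% of the 4343 lay within 1.25-fold in mRNA and 77.6% in footprints. The median log2 difference was -0.09 in mRNA, -0.09 in footprints and 0.01 in footprints per mRNA, with SDs across genes of 0.26, 0.27 and 0.23. In mRNA 167 genes passed 1.5-fold, of which 39 rose (0.898% of those compared) and the rest fell (2.95%). In footprints 64 genes rose (1.47%) and 104 fell (2.39%). In footprints per mRNA 35 rose (0.806%) and 43 fell (0.99%). Since the median gene lay slightly below 0, the split depends on the scaling: relative to the median gene, 84 rose and 72 fell in mRNA, and 121 rose and 56 fell in footprints. In footprints the counting interval lay wholly past 1.5-fold for 22 of the 64 genes that rose and 28 of the 104 that fell. That it excluded equal levels for all of them follows from the minimum count and the 1.5-fold rule.

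Most genes that passed 1.5-fold in mRNA differed in the same direction in footprints, while fewer passed 1.5-fold there too. Of the 39 genes that rose in mRNA, 14 also rose in footprints and 38 had a positive footprint difference, with a median of 0.49. Of those that fell in mRNA, 50 also fell in footprints and 120 had a negative footprint difference, with a median of -0.50. Over all 4343 genes 1.47% rose and 2.39% fell in footprints. The median footprint difference over all genes was -0.09, so a negative sign was common in any case. Across the 4343 genes, which are not independent replicates, Pearson's r of the mRNA and footprint differences was 0.62. The assays were separate libraries.

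**Figure D1:**
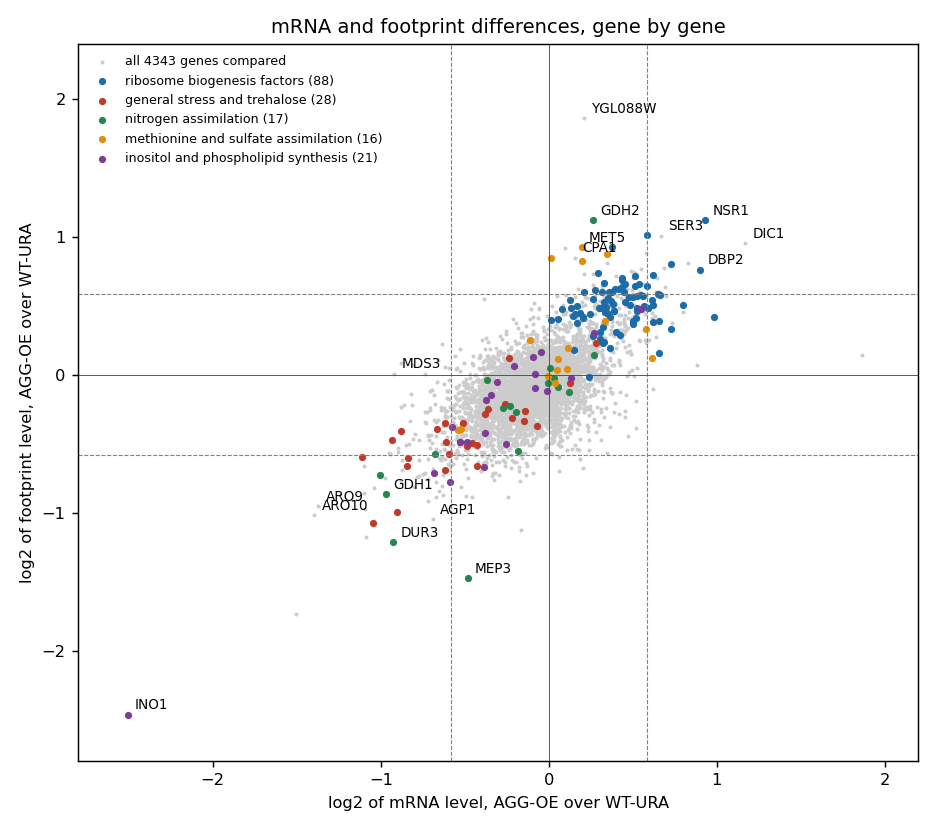
Each point is a gene, placed by the log2 of its mRNA level (horizontal) and of its footprint level (vertical) in AGG-OE over WT-URA. Dashed lines mark 1.5-fold. Ribosome biogenesis factors lie to the upper right, genes of stress protection and trehalose to the lower left, INO1 lies farthest down at -2.51 in mRNA and -2.46 in footprints, and MET5, CPA1 and GDH2 lie high in footprints with little difference in mRNA.

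The list with the most genes that rose was that of ribosome biogenesis factors, the proteins that transcribe, cut, modify and assemble ribosomal RNA in the nucleolus and are not part of the finished ribosome. All 88 members compared lay above the median gene in mRNA and in footprints. In mRNA 17 rose and none fell, with a median log2 difference of 0.39, and in footprints 25 rose and none fell, with a median of 0.49. No member passed 1.5-fold in footprints per mRNA, where the median was 0.10 and the members ranged from -0.56 to 0.55. Counted relative to the median gene, 32 rose in mRNA and 44 in footprints.

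NSR1, the yeast nucleolin and a binder of pre-ribosomal RNA, had 471 ppm of mRNA in AGG-OE, against 247 ppm in WT-URA, and 576 ppm of footprints in AGG-OE, against 265 ppm in WT-URA. Its footprints, 5222 in AGG-OE and 2228 in WT-URA, rose 2.18-fold with a counting interval of 2.07 to 2.29. NSR1 was thus high in AGG-OE in both assays and by a similar factor. DBP2, an RNA helicase that acts in ribosomal RNA processing and mRNA packaging, rose 1.87-fold in mRNA, to 314 ppm in AGG-OE against 168 ppm in WT-URA, and 1.70-fold in footprints (interval 1.61 to 1.80). RRP12, which accompanies both ribosomal subunits out of the nucleus, had 205 ppm of footprints in AGG-OE and 102 ppm in WT-URA, a 2.02-fold rise (interval 1.86 to 2.19), with a log2 mRNA difference of 0.58, just under the threshold. The helicase MAK5, needed for the large subunit, rose 1.90-fold in footprints (interval 1.69 to 2.15), with mRNA at 1.30-fold. ROK1, a helicase of the small subunit, rose in both assays, 1.65-fold in mRNA and 1.75-fold in footprints (interval 1.55 to 1.96). IMP3, a U3 snoRNA-associated protein of the small-subunit processome, had the largest mRNA rise of the list, 67.1 ppm in AGG-OE against 34.0 ppm in WT-URA, while its footprints stood at 1.34-fold (interval 1.14 to 1.58). DBP8, another helicase of the small subunit, showed the same order, with mRNA at 1.74-fold and footprints at 1.42-fold (interval 1.22 to 1.67). IMP3 was not among the 86 members with enough mRNA signal for naming, a level given with the methods. Of those 86, 16 rose in mRNA.

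The ribosomal proteins themselves differed far less. Of 71 proteins of the large subunit and 52 of the small subunit compared, none passed 1.5-fold in any of the 3 measures. Their median mRNA differences were 0.15 and 0.16, and 69 and 50 of them lay above the median gene. In footprints the medians were 0.03 and 0.02, and 63 and 44 members lay above the median gene. The footprint median was -0.09 over all genes and -0.17 over the 876 genes of 220 codons or fewer. Footprints per mRNA were at -0.11 for the large and -0.13 for the small subunit, against 0.01 over all genes and -0.12 over the 876 genes of 220 codons or fewer. The members compared had median lengths of 139 codons in the large and 144 codons in the small subunit. Their medians of footprints per mRNA were near that of those 876 short genes, which themselves include members of both lists. Many of these genes come in near-identical pairs, and footprints that match both copies had been discarded before deposit.

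**Figure D2:**
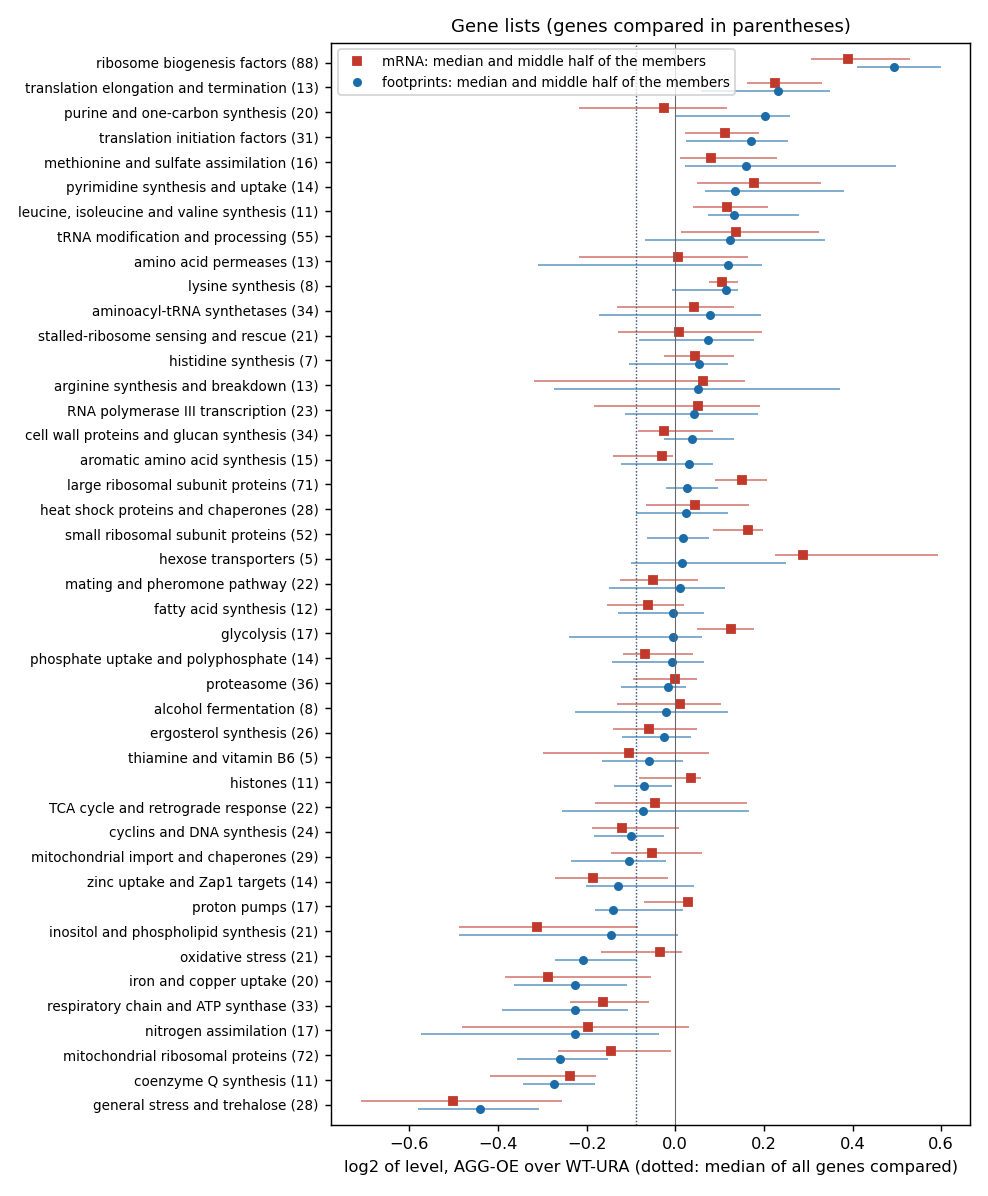
Median log2 difference, AGG-OE over WT-URA, of 43 gene lists in mRNA (squares) and in footprints (circles), with lines between the quartiles of the members. Dotted lines mark the median of all 4343 genes. Ribosome biogenesis factors stand at the top (0.39 in mRNA and 0.49 in footprints) and general stress and trehalose at the bottom (-0.50 and -0.44).

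The general stress and trehalose list, which holds targets of the stress regulators Msn2 and Msn4 and the enzymes of trehalose and glycogen, was the counterpart. Of 28 members compared, 12 fell and none rose in mRNA, with a median log2 difference of -0.50, and 7 fell and none rose in footprints, with a median of -0.44. None passed 1.5-fold in footprints per mRNA, where the median was 0.03. Relative to the median gene, 7 fell in mRNA and 3 in footprints. GSY1, a glycogen synthase, had 58.5 ppm of mRNA in AGG-OE, against 121 ppm in WT-URA, and 39.0 ppm of footprints in AGG-OE, against 82.2 ppm in WT-URA, a fall to 0.474-fold (interval 0.416 to 0.540). CTT1, the cytosolic catalase, was at 0.534-fold in mRNA and 0.501-fold in footprints (204 footprints in AGG-OE and 378 in WT-URA, interval 0.420 to 0.595). The glycogen phosphorylase GPH1 fell to 0.558-fold in mRNA and 0.633-fold in footprints (interval 0.568 to 0.704). PGM2, the phosphoglucomutase that feeds glycogen and trehalose synthesis, and SOL4, a 6-phosphogluconolactonase, fell in mRNA to 0.523-fold and 0.463-fold, with footprints at 0.720-fold and 0.661-fold. SOL4 and CTT1 were not among the 24 members with enough mRNA signal for naming, of which 9 fell in mRNA and 4 in footprints. TFS1, an inhibitor of carboxypeptidase Y, fell in both assays, to 0.650-fold in mRNA and 0.620-fold in footprints (interval 0.563 to 0.682). The decrease did not take in every stress gene. HSP12, a small membrane-protecting heat shock protein that was picked after its values were seen, stood at 0.907-fold in mRNA and 0.832-fold in footprints (interval 0.777 to 0.892), and of 28 heat shock proteins and chaperones compared none passed 1.5-fold in mRNA or in footprints.

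Several genes for taking up and using nitrogen sources fell in AGG-OE. Of 17 genes of nitrogen assimilation compared, 4 fell and none rose in mRNA, and 4 fell and 1 rose in footprints, while 7 lay above the median gene in each assay. GDH1, the main glutamate dehydrogenase that fixes ammonium, had 762 ppm of mRNA in AGG-OE, against 1490 ppm in WT-URA, and 884 ppm of footprints in AGG-OE, against 1609 ppm in WT-URA (0.549-fold, interval 0.534 to 0.565). DUR12, the urea amidolyase, fell to 0.499-fold in mRNA and 0.604-fold in footprints (interval 0.567 to 0.642), and the urea permease DUR3 to 0.526-fold and 0.431-fold (interval 0.362 to 0.513). Both steps of urea use were thus lower in both assays. The ammonium permease MEP2 was at 0.625-fold in mRNA and 0.672-fold in footprints (interval 0.591 to 0.764), of which the mRNA alone passed the threshold. Its relative MEP3 had 194 footprints in AGG-OE and 501 in WT-URA, a fall to 0.359-fold (interval 0.303 to 0.425), with mRNA at 0.716-fold, so that footprints per mRNA fell to 0.502-fold, the lowest value among the 3758 genes with enough mRNA signal for naming. GDH2, the NAD-dependent glutamate dehydrogenase that releases ammonium, went the other way: it had 165 ppm of footprints in AGG-OE and 75.7 ppm in WT-URA, a 2.18-fold rise (interval 1.98 to 2.39), with a log2 mRNA difference of 0.26.

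Among 13 amino acid permeases compared, 2 fell in both assays and none rose, while 2.95% of all genes fell in mRNA and 2.39% in footprints. The list as a whole was not lower: 9 members lay above the median gene in mRNA and 8 in footprints, with medians of 0.01 and 0.12. GAP1, the general amino acid permease, had 241 ppm of mRNA in AGG-OE, against 444 ppm in WT-URA, and fell to 0.587-fold in footprints (interval 0.558 to 0.618). AGP1, a permease of broad range, fell to 0.620-fold in mRNA and 0.483-fold in footprints (interval 0.455 to 0.512). The breakdown of aromatic amino acids showed the largest mRNA falls after INO1 among those 3758 genes. ARO10, the decarboxylase of the Ehrlich pathway, had 272 ppm of mRNA in AGG-OE, against 714 ppm in WT-URA, and 239 ppm of footprints in AGG-OE, against 484 ppm in WT-URA. ARO9, the aromatic aminotransferase of the same pathway, had 300 ppm of mRNA in AGG-OE, against 777 ppm in WT-URA, and 242 ppm of footprints in AGG-OE, against 469 ppm in WT-URA. In footprints ARO10 was at 0.493-fold (interval 0.468 to 0.520) and ARO9 at 0.517-fold (interval 0.491 to 0.545). The other 13 genes of the aromatic list, most of them in synthesis, did not pass 1.5-fold in either assay.

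Arginine metabolism is of interest because the overexpressed tRNA carries arginine. Of 13 genes of arginine synthesis and breakdown compared, 1 fell in mRNA and none rose, while 2 rose and 1 fell in footprints. The gene that fell was CAR1, arginase, which opens arginine breakdown: it had 198 ppm of mRNA in AGG-OE, against 297 ppm in WT-URA, and was at 0.580-fold in footprints (interval 0.547 to 0.614). Its mRNA fall, at -0.59 on the log2 scale, lay at the threshold and was not called relative to the median gene, nor when the 10 genes with the most footprints were left out of the scaling, while its footprint fall was called in both. CAR2, the ornithine aminotransferase of the next step, was at 0.669-fold in mRNA and 0.681-fold in footprints (interval 0.644 to 0.720), just short of the threshold in both. CPA1, the small subunit of the carbamoyl phosphate synthetase that serves arginine synthesis, had 476 footprints in AGG-OE and 245 in WT-URA, a 1.80-fold rise (interval 1.54 to 2.11), with mRNA at 134 ppm in AGG-OE and 120 ppm in WT-URA. Its footprints per mRNA were 1.62-fold. The leader of the CPA1 mRNA holds a short open reading frame, YOR302W, whose peptide stalls ribosomes when arginine is plentiful and lowers CPA1 translation. Its footprints were at 16.8 ppm in AGG-OE and 15.2 ppm in WT-URA, 1.10-fold (interval 0.865 to 1.41), so that no footprint difference was detectable there at this depth. The mRNA signal of YOR302W, which spans 26 codons, was 708 in AGG-OE and 173 in WT-URA, among the lowest of the genes compared. ARG3, ornithine carbamoyltransferase, rose 1.57-fold in footprints (interval 1.33 to 1.86) with a log2 mRNA difference of 0.26, and ARG4, argininosuccinate lyase, stood at 0.767-fold in mRNA and 0.756-fold in footprints (interval 0.729 to 0.784). With the first 100 codons left out, the log2 footprint difference was 0.70 for CPA1 and 0.46 for ARG3, which then missed the threshold. No gene of the list, CPA1 included, then rose by 1.5-fold in footprints per mRNA. The list therefore held members on either side, with median differences of 0.06 in mRNA and 0.05 in footprints.

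Few genes of the machinery that makes, charges and uses tRNA passed 1.5-fold in either assay. The cytosolic arginyl-tRNA synthetase, YDR341C, had 526 ppm of mRNA in AGG-OE, against 430 ppm in WT-URA, and 609 ppm of footprints in AGG-OE, against 524 ppm in WT-URA (1.16-fold, interval 1.12 to 1.21). Its mitochondrial counterpart MSR1 did not reach the footprint minimum in AGG-OE and was not compared. Among 34 aminoacyl-tRNA synthetases compared, no gene passed 1.5-fold in mRNA and 1 fell in footprints, DIA4, the mitochondrial seryl-tRNA synthetase, with 144 footprints in AGG-OE and 222 in WT-URA (0.602-fold, interval 0.485 to 0.746). Of 55 genes of tRNA modification and processing, TRM5, a tRNA guanosine methyltransferase, rose in mRNA (1.55-fold), TRM82, a subunit of another guanosine methyltransferase, rose in footprints (1.53-fold, interval 1.37 to 1.72), and ABP140, an actin-binding tRNA cytidine methyltransferase, fell in footprints (0.609-fold, interval 0.574 to 0.646). TRM5 was not among the 48 of these genes with enough mRNA signal for naming, none of which rose in mRNA. None of 23 genes of RNA polymerase III transcription, 31 translation initiation factors, 13 elongation and termination factors or 21 genes of the sensing and rescue of stalled ribosomes passed 1.5-fold in mRNA or in footprints. The elongation and termination factors, all 13 of which lay above the median gene in both assays, had medians of 0.22 in mRNA and 0.23 in footprints. Of the 55 genes of tRNA modification and processing, 44 lay above the median gene in mRNA and 42 in footprints. Their medians were 0.14 and 0.12. Relative to the median gene, 2 of them rose and none fell in mRNA, and 4 rose and 1 fell in footprints. Of the 31 initiation factors, 26 lay above the median gene in mRNA and 28 in footprints. GCN4, the activator of amino acid synthesis whose translation rises when uncharged tRNA accumulates, had 94.4 ppm of footprints in AGG-OE and 98.3 ppm in WT-URA, 0.961-fold with an interval of 0.872 to 1.06, and its mRNA was at 0.998-fold. No gene of histidine synthesis, of branched-chain amino acid synthesis or of lysine synthesis passed 1.5-fold in either assay, among 7, 11 and 8 compared. Over all genes 0.898% rose and 2.95% fell in mRNA, and 1.47% rose and 2.39% fell in footprints. Lists this small would thus hold few calls in any case. In mRNA 6, 10 and 7 of their members lay above the median gene, and in footprints 5, 9 and 6.

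The largest single difference was in INO1, the inositol 3-phosphate synthase that makes inositol from glucose 6-phosphate. It had 116 ppm of mRNA in AGG-OE, against 657 ppm in WT-URA, and 126 ppm of footprints in AGG-OE, against 693 ppm in WT-URA. The falls, to 0.176-fold in mRNA and 0.181-fold in footprints (1137 footprints in AGG-OE and 5824 in WT-URA, interval 0.170 to 0.193), matched closely, and footprints per mRNA stood at 1.03-fold. Of 21 genes of inositol and phospholipid synthesis, many of them regulated with INO1 by inositol, 3 fell and none rose in mRNA, and 4 fell and none rose in footprints. ITR1, the inositol permease, had 1707 ppm of mRNA in AGG-OE, against 2747 ppm in WT-URA, and was at 0.611-fold in footprints (interval 0.594 to 0.628). OPI3, a phospholipid methyltransferase of phosphatidylcholine synthesis, fell to 0.665-fold in mRNA and 0.582-fold in footprints (interval 0.564 to 0.601). INO4, a subunit of the activator of these genes, fell in footprints to 0.630-fold (interval 0.539 to 0.736), with mRNA at 0.766-fold. Relative to the median gene, OPI3 was no longer called in mRNA nor INO4 in footprints, and URA7, CTP synthase, rose in mRNA. The list's median differences were -0.31 in mRNA and -0.14 in footprints.

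Among genes of methionine synthesis and sulfate assimilation, more rose in footprints than in mRNA. Of the 16 compared, 1 rose in mRNA, 4 rose in footprints and 3 rose in footprints per mRNA, and the 4 that rose in footprints all act in the activation and reduction of sulfate. MET3, ATP sulfurylase, had 58.0 ppm of footprints in AGG-OE and 32.7 ppm in WT-URA, a 1.77-fold rise (interval 1.53 to 2.06), with mRNA at 1.14-fold. MET14, the kinase of the next step, rose 1.84-fold in footprints (360 footprints in AGG-OE and 182 in WT-URA, interval 1.53 to 2.21), with mRNA at 1.27-fold. MET5 and MET10, the subunits of sulfite reductase, rose 1.90-fold (interval 1.74 to 2.07) and 1.80-fold (interval 1.60 to 2.02) in footprints. Their mRNA was at 1.14-fold for MET5 and 1.01-fold for MET10, so footprints per mRNA rose to 1.66-fold and 1.78-fold. The rise was spread along these genes: with the first 100 codons left out, the log2 footprint difference was 0.76 for MET3, 0.92 for MET5, 0.78 for MET10 and 0.97 for MET14. The gene that rose in mRNA was MET8, of siroheme synthesis, at 1.53-fold, with footprints at 1.09-fold (interval 0.858 to 1.38). MET8 was not among the 14 members with enough mRNA signal for naming, none of which rose in mRNA. SAM1 and SAM2, paralogous S-adenosylmethionine synthetases that share sequence, differed from each other: SAM1 was at 1.49-fold in mRNA and 1.26-fold in footprints (interval 1.22 to 1.30), and SAM2 at 0.697-fold and 0.763-fold (interval 0.743 to 0.784).

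Elsewhere footprints per mRNA moved through either assay. Among the 3758 genes with enough mRNA signal for naming, the largest rises were those of YGL088W, MED1, MDS3, GDH2 and MET10. MED1, a subunit of the Mediator of transcription, had 56.5 ppm of mRNA in AGG-OE and 104 ppm in WT-URA, with footprints at 1.06-fold (interval 0.893 to 1.26). MDS3, a regulator of the response to nutrients, had 58.6 ppm of mRNA in AGG-OE and 111 ppm in WT-URA, with footprints at 1.01-fold (interval 0.906 to 1.12). In both, mRNA was lower in AGG-OE and footprints were near level. YGL088W, with the highest footprint rise of all genes at 3.64-fold (3505 footprints in AGG-OE and 894 in WT-URA), is uncertain: it overlaps the small nucleolar RNA SNR10, and a single codon held 64.5% of its footprints in AGG-OE and 52.9% in WT-URA. The largest falls after MEP3 were in RCF1, MXR2, BOL3 and IRC24, of 119 to 264 codons. RCF1, an assembly factor of respiratory supercomplexes, had 32.4 ppm of footprints in AGG-OE and 49.4 ppm in WT-URA (0.655-fold, interval 0.562 to 0.763), with mRNA at 1.14-fold. MXR2, a mitochondrial methionine sulfoxide reductase, BOL3, a mitochondrial iron-sulfur protein, and IRC24, a benzil reductase, had footprints per mRNA of 0.581-fold, 0.590-fold and 0.591-fold.

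Pyrimidine and purine genes held few calls. Of 14 genes of pyrimidine synthesis and uptake, 1 rose in footprints, FUI1, the uridine permease (146 ppm in AGG-OE and 96.7 ppm in WT-URA, interval of the fold 1.38 to 1.64, with mRNA at 1.41-fold). FUI1 lay at the threshold, with a log2 footprint difference of 0.59 that was 0.56 without its codon of most footprints, and relative to the median gene 2 genes of the list rose in mRNA and 2 in footprints. URA2, the multifunctional enzyme that starts pyrimidine synthesis, had 3471 ppm of footprints in AGG-OE and 2345 ppm in WT-URA, 1.48-fold with an interval of 1.45 to 1.51. The list's medians were 0.18 in mRNA and 0.14 in footprints, and 12 members lay above the median gene in each assay. Of 20 purine and one-carbon genes, 1 fell in mRNA, MTD1, a folate dehydrogenase (0.656-fold), and 2 rose in footprints per mRNA. The mRNA fall was not called relative to the median gene, and neither rise in footprints per mRNA was called relative to genes of like length. Of the 20 purine and one-carbon genes, 13 lay above the median gene in mRNA, 17 in footprints and 16 in footprints per mRNA. Their medians were -0.03, 0.20 and 0.14. AAH1, adenine deaminase, which belongs to no list, rose in both assays, 1.78-fold in mRNA and 1.76-fold in footprints (interval 1.57 to 1.97).

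In carbon metabolism, the major glycolytic enzymes were level and some minor isoforms were lower. The 5 genes with the most footprints, FBA1, CDC19, PDC1, PGK1 and GPM1, all of glycolysis or the step from pyruvate to acetaldehyde, had footprint ratios between 0.920-fold (GPM1) and 1.06-fold (PDC1) and mRNA ratios between 1.03-fold (GPM1) and 1.14-fold (PGK1). TDH1, a glyceraldehyde 3-phosphate dehydrogenase isoform of slow growth, had 436 ppm of mRNA in AGG-OE, against 685 ppm in WT-URA, and fell to 0.557-fold in footprints (interval 0.544 to 0.571). HXK1, a hexokinase repressed by glucose, fell in footprints to 0.647-fold (interval 0.612 to 0.683), with mRNA at 0.772-fold. ADH1, the main fermentative alcohol dehydrogenase, rose in mRNA, with 2232 ppm in AGG-OE against 1452 ppm in WT-URA, and was at 1.41-fold in footprints (interval 1.38 to 1.44). HXT1, the low-affinity glucose transporter, rose 1.62-fold in mRNA and 1.56-fold in footprints (interval 1.44 to 1.69), and HXT2, of high affinity, rose 1.51-fold in mRNA alone. Relative to the median gene, the falls of TDH1 in mRNA and of HXK1 in footprints were not called, while that of TDH1 in footprints was. TDH1, ADH1 and the hexose transporters have close paralogs, and footprints that match several copies were not counted.

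Among mitochondrial groups, 3 lists had medians below that of all genes in both assays. Of 72 mitochondrial ribosomal proteins compared, 1 fell in mRNA, MRP4 (0.659-fold), which overlaps YHL005C and was not called relative to the median gene, and none passed 1.5-fold in footprints, where the median was -0.26 and 8 lay above the median gene. The 33 genes of the respiratory chain and ATP synthase had medians of -0.16 in mRNA and -0.23 in footprints, and the 11 genes of coenzyme Q synthesis -0.24 and -0.27, with no member of either past 1.5-fold in the 2 assays. In footprints per mRNA 2 mitochondrial ribosomal proteins and 2 genes of the respiratory chain and ATP synthase fell. The 29 genes of mitochondrial import differed from these lists, with medians of -0.05 in mRNA and -0.10 in footprints and 19 members above the median gene in mRNA. The members compared had median lengths of 236 codons for the mitochondrial ribosomal proteins, 149 codons for the respiratory chain and ATP synthase and 313 codons for coenzyme Q synthesis, against 424 codons over all genes, and footprint differences moved with gene length, as the plot of medians by gene length shows. The genes of mitochondrial import had a median length of 198 codons, and mRNA differences showed no order by gene length. The part of length in these medians was not tested.

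Further rises were found in DIC1, the mitochondrial dicarboxylate carrier, and SER3, which starts serine synthesis. DIC1 had 346 ppm of mRNA in AGG-OE, against 154 ppm in WT-URA, and rose 1.94-fold in footprints (interval 1.75 to 2.16). SER3 had 347 ppm of footprints in AGG-OE, against 172 ppm in WT-URA, a 2.01-fold rise (interval 1.89 to 2.14), with mRNA at 1.59-fold. The non-coding transcript SRG1 overlaps SER3, so its mRNA value is less certain. Further falls were found in EEB1, an acyltransferase that makes fatty acid ethyl esters, at 0.468-fold in mRNA and 0.510-fold in footprints (interval 0.473 to 0.551), and in MHO1, a protein of unknown function, at 0.467-fold and 0.551-fold (interval 0.448 to 0.676). Of 20 genes of iron and copper uptake, 2 fell in both assays: FIT2, a cell wall mannoprotein that retains siderophore iron, at 0.546-fold in mRNA and 0.651-fold in footprints (interval 0.597 to 0.709), and TIS11, which destabilises mRNAs when iron is scarce, at 0.607-fold and 0.656-fold (interval 0.599 to 0.718). Relative to the median gene, both still fell in mRNA and neither did in footprints. Of 14 zinc-responsive genes, 1 fell in mRNA, VEL1, at 0.517-fold, which shares sequence with YOR387C. The zinc transporter ZRT1, named after its values were seen, was at 1.07-fold in mRNA and 1.02-fold in footprints.

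Levels in AGG-OE and WT-URA were also set beside those of the other 3 strains. Which pair of strains was closest was not measured. The levels that follow are ppm over the 4964 genes listed in all 5 strains, and the strains' comparisons share WT-URA or differ in plasmid and culture, so the values are given side by side only. The 87 ribosome biogenesis factors listed throughout summed to 20582 ppm of mRNA in AGG-OE, 12228 ppm in AGG-QC and 15484 ppm in WT-URA, and to 26751 ppm in ACA-K and 29574 ppm in WT. AGG-OE was thus higher than the other plasmid strains and lower than the strains without a plasmid. For 26 genes of stress and trehalose the sums of mRNA were 5238 ppm in AGG-OE, 9811 ppm in AGG-QC and 6374 ppm in WT-URA, and 3218 ppm in ACA-K and 3315 ppm in WT. For 22 genes of nitrogen assimilation they were 6062 ppm in AGG-OE, 8837 ppm in AGG-QC and 7152 ppm in WT-URA, and 5627 ppm in ACA-K and 5619 ppm in WT. In each of these lists the mRNA level in AGG-OE lay between that of WT-URA and those of the plasmid-free strains, and AGG-QC, which also makes an AGG-decoding tRNA, lay on the far side of WT-URA. In footprints AGG-QC and WT-URA were nearly level for ribosome biogenesis factors, at 10058 ppm and 10233 ppm, against 14534 ppm in AGG-OE. The 14 zinc-responsive genes were at a like level in the plasmid strains, with 16161 ppm of mRNA in AGG-OE, 15981 ppm in AGG-QC and 16229 ppm in WT-URA, and 1439 ppm in ACA-K and 1599 ppm in WT. What in the strains or their cultures moved with these levels was not tested.

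Single genes followed several patterns. GAP1 footprints were at 273 ppm in AGG-OE, 1067 ppm in AGG-QC and 465 ppm in WT-URA, and at 17.9 ppm in ACA-K and 13.7 ppm in WT. NSR1 footprints were at 577 ppm in AGG-OE, 218 ppm in AGG-QC and 266 ppm in WT-URA, and at 1075 ppm in ACA-K and 951 ppm in WT. Both genes placed AGG-OE between WT-URA and the plasmid-free strains. For INO1, AGG-OE also lay between WT-URA and ACA-K, but AGG-QC was level with WT-URA. INO1 footprints were at 126 ppm in AGG-OE, 694 ppm in AGG-QC and 694 ppm in WT-URA. They were at 1.52 ppm in ACA-K, and INO1 was not listed in WT. GDH2 and SER3 were highest in AGG-OE of all 5 strains, GDH2 at 165 ppm of footprints in AGG-OE, 115 ppm in AGG-QC and 75.8 ppm in WT-URA, and at 63.9 ppm in ACA-K and 51.5 ppm in WT. CPA1 footprints were at 52.6 ppm in AGG-OE, 22.5 ppm in AGG-QC and 29.2 ppm in WT-URA, and at 80.4 ppm in ACA-K and 63.5 ppm in WT.

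**Figure D3:**
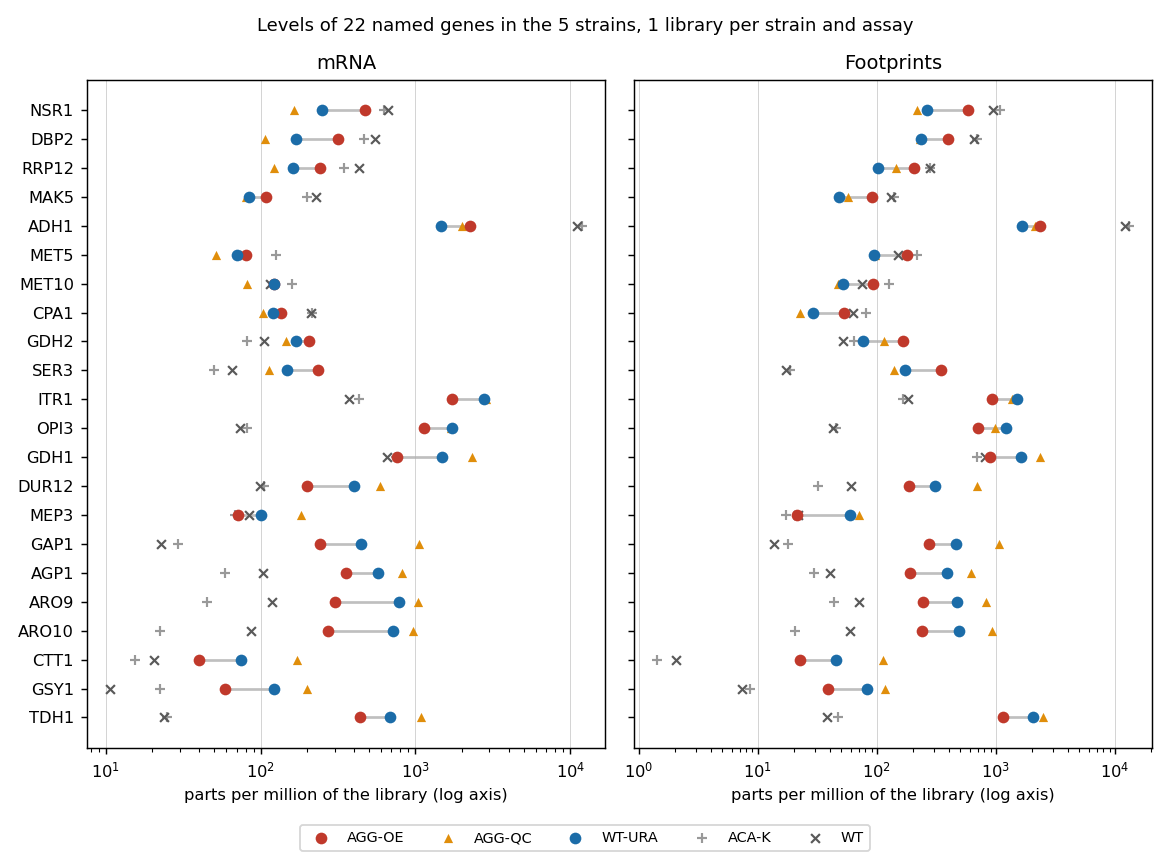
Levels of 22 named genes in mRNA (left) and footprints (right), in ppm on a log axis, with 1 point per strain and no replicates. Grey lines join AGG-OE (red) and WT-URA (blue). The genes from ITR1 down are lower in AGG-OE than in WT-URA, and for GAP1 and NSR1 the point of AGG-OE lies between WT-URA and the plasmid-free strains, while SER3 is highest in AGG-OE.

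Footprints were placed differently along genes in AGG-OE, with fewer near the start. Pooled over the 4343 genes, the first 20 codons held 14.8% of footprints in AGG-OE and 15.6% in WT-URA, codons 21 to 100 held 30.0% in AGG-OE and 31.05% in WT-URA, and the rest held 55.2% in AGG-OE and 53.3% in WT-URA. Gene by gene the shift was larger: the median gene had 13.7% of its footprints there in AGG-OE and 16.1% in WT-URA. Among 4198 genes of more than 100 codons it was lower in AGG-OE in 3220 and higher in 956, with a median difference of -1.88 percentage points. In genes of 400 codons or more, each weighted equally, the first 20 codons held 15.7% of the footprints of the first 400 in AGG-OE and 19.1% in WT-URA, and codons 21 to 40 held 7.34% in AGG-OE and 8.81% in WT-URA. From codon 41 on, every stretch of 20 codons held slightly more in AGG-OE, by 0.12 to 0.34 points. Pooled as for the 14.8% in AGG-OE and 15.6% in WT-URA, the first 20 codons held 13.7% of footprints in AGG-QC, 6.45% in ACA-K and 6.33% in WT, a wider spread among libraries of the series than the difference between AGG-OE and WT-URA. Codons were not read from sequence here, so the density at AGG itself was not analysed.

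**Figure D4:**
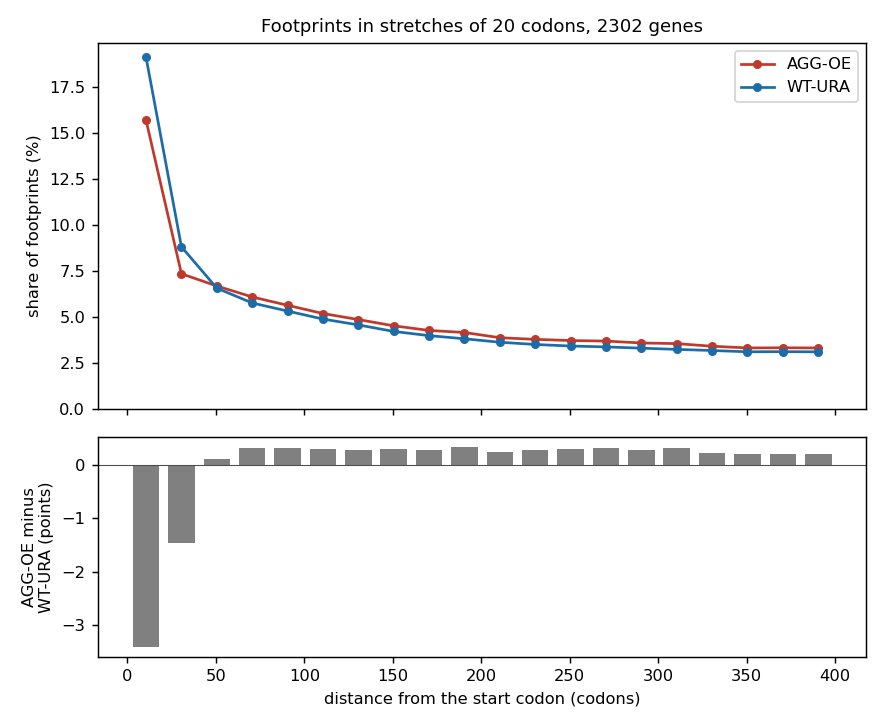
Share of a gene's footprints within its first 400 codons, in stretches of 20 codons, averaged over 2302 genes (top), and the difference, AGG-OE minus WT-URA, in percentage points (bottom). AGG-OE lies 3.41 points below WT-URA in the first 20 codons and 1.47 points below in codons 21 to 40, and slightly above it in every later stretch.

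The footprint difference also varied with gene length. In 5 equal classes of genes from short to long, the median log2 footprint difference was -0.17, -0.14, -0.09, -0.05 and 0.00, and the median of footprints per mRNA was -0.12, -0.04, 0.01, 0.05 and 0.09. The median mRNA difference showed no such order, at -0.04 in the shortest class and between -0.09 and -0.10 in the others. The order was still present with the first 100 codons left out, when footprints per mRNA had medians of -0.13 in the shortest class and 0.12 in the longest. The genes whose footprints per mRNA rose by 1.5-fold were longer in the median than the 424 codons over all genes, and those that fell had a median of 154 codons. MET5, MET10, GDH2 and RRP12 are in the longest class, whose median of 0.09 compares with their own footprints per mRNA of 0.73, 0.83, 0.86 and 0.43 on the log2 scale. Whether this relation has a part in the calls of short genes such as RCF1 was not tested beyond taking ratios relative to genes of like length. Position by chromosome showed no such order, with medians per chromosome between -0.12 and -0.05 in mRNA and between -0.11 and -0.06 in footprints.

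**Figure D5:**
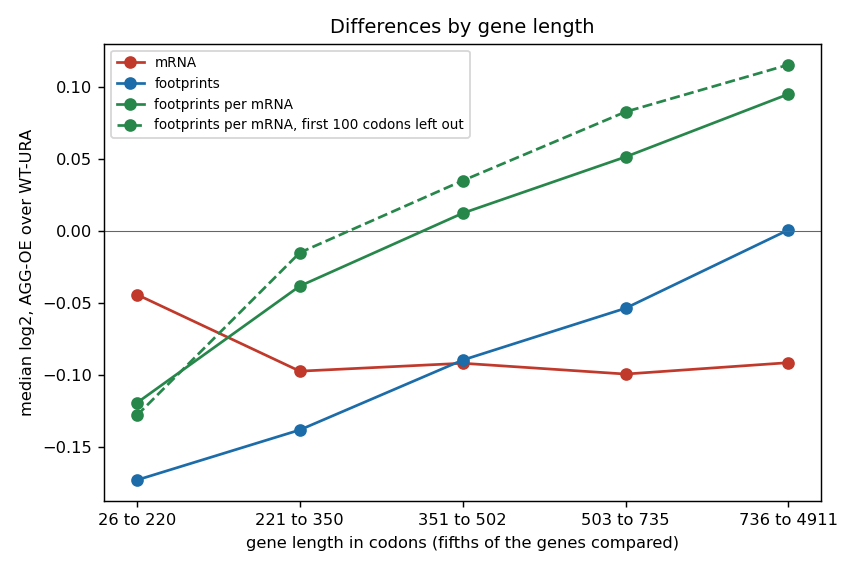
Median log2 difference, AGG-OE over WT-URA, in 5 equal classes of the compared genes by length in codons (horizontal), for mRNA, footprints and footprints per mRNA, the last also with the first 100 codons left out (dashed). Footprints per mRNA run from -0.12 in the shortest to 0.09 in the longest class, while mRNA has no such order.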

How the data were processed

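Per the study's methods, the authors aligned reads with Bowtie 1.0.0 to yeast assembly R63 and kept uniquely mapped footprints of set lengths. The deposited tables give, per gene, raw footprint counts, in total and at each codon, and an mRNA signal whose unit the authors did not name. mRNA fragments had been assigned to genes by where they began relative to the start and stop codons. One table per strain was used, 1 library per assay.

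Each library was scaled to its total over the 5021 genes listed in both strains without URA3. Genes with 128 or more footprints in both strains were compared by their ratio, with 1.5-fold as the rule of size and no test, since there was 1 library a group. Counting intervals were exact binomial at 95%. The calculations were tested on simulated data. The 43 gene lists (that of mitochondrial ribosomal proteins by name pattern) and the genes compared were chosen with earlier results of these data known. The text names genes by rule: the 5 largest rises and falls per measure with an mRNA signal of 3840 or more in both strains (the level called enough for naming), up to 4 per list with a call, GCN4, the arginyl-tRNA synthetases and the 5 genes with most footprints. YOR302W, HSP12, ZRT1, YEL073C and YOR387C were added after their values were seen. Gene symbols were looked up in RefSeq (assembly R64), where 5269 of the 5373 genes were found. Scaling, minimum, fold and codons counted were varied. Python 3 with numpy, scipy and pandas was used.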

Additional observations from a re-analysis of the deposited data

How the results depend on the processing

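No paired analysis was possible because each strain has 1 library per assay, and no replicate could be left out. The planned comparison of footprints at arginine positions, with its 3 alternatives, was not run, since it needs protein or genome sequence. Scaled by the median ratio, 84 genes rose and 72 fell in mRNA, and 121 rose and 56 fell in footprints. With a footprint minimum 4 times as high, which leaves 2274 genes, the counts of rises and falls were 19 and 47 in mRNA, 34 and 32 in footprints, and 7 and 7 in footprints per mRNA. With no minimum beyond 1 footprint, 217 fell in mRNA, 281 fell in footprints, and 94 rose and 129 fell in footprints per mRNA. Among the 3758 genes with enough mRNA signal for naming, 78 fell in mRNA, and 20 rose and 21 fell in footprints per mRNA. At 2-fold, 2 rose and 12 fell in mRNA, 5 rose and 9 fell in footprints, and 1 rose and 1 fell in footprints per mRNA. With the first 20 codons left out, 57 rose in footprints per mRNA, and with the first 100 left out 157 fell in footprints, and 82 rose and 77 fell in footprints per mRNA. An alternative added after seeing the data, ratios relative to the median of each of the 5 length classes, gave 110 rises and 51 falls in footprints. Fewer genes tested and a stricter fold account for lower counts by construction, and otherwise the cause was not tested. No called footprint or footprints per mRNA value of a named gene changed sign with any set of codons left out. Scaling by the median ratio shifts all genes alike and by less than 1.5-fold. It therefore could not change the sign of a called value. Of 49 named genes past 1.5-fold in footprints, 42 were so under median scaling, 47 with the first 20 codons left out, 44 with the first 100 left out and 47 with the codon of most footprints left out, which was added after seeing the data. With the first 100 codons left out, the log2 footprint difference of YGL088W was 0.26.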

Other observations

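A pair of genes with no assigned function, picked after their values were seen because they were among the lowest in AGG-OE, moved in both assays. YEL073C had 39.2 ppm of mRNA in AGG-OE, against 111 ppm in WT-URA, and 158 footprints in AGG-OE, against 487 in WT-URA (0.301-fold, 95% exact interval 0.250 to 0.361, counting error only). A single codon held 41.1% of its footprints in AGG-OE. YOR387C, a paralog of VEL1, had 22.2 ppm of mRNA in AGG-OE, against 47.2 ppm in WT-URA, and 203 footprints in AGG-OE, against 425 in WT-URA (0.443-fold, interval 0.373 to 0.525). Both were unlisted in ACA-K and WT. In AGG-OE both had less mRNA signal than the level called enough for naming.

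Differences also varied with the mRNA level per codon. In 5 equal classes of genes from low to high, the median log2 difference in mRNA was -0.14, -0.13, -0.11, -0.07 and 0.02, and that of footprints per mRNA was 0.06, 0.06, 0.02, -0.02 and -0.07. Footprints showed no such order, with medians between -0.11 and -0.06.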
